A study of Rattus norvegicus with 24 samples.

Results

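Transcript levels in the amygdala of rats given a low dose of MK-801 were compared with those of rats given saline on a pair of two-colour microarrays, 2 of the 24 arrays of a study of 6 brain regions and 2 doses. The arrays were chosen by their titles alone: amygdala, saline against the low dose. All groups were male Wistar rats, a laboratory strain with no allele or transgene named in the labels, 9 weeks old per the sample labels and 10 weeks old per the design text. The treated rats received 0.08 mg/kg MK-801 by the intraperitoneal route, the saline rats the vehicle, and brains were dissected 40 min later. The other groups used here were the amygdala at the high dose of 0.16 mg/kg (2 arrays) and the low dose in cortex, hippocampus, ventral striatum, hypothalamus and midbrain (10 arrays). The labels count 9 rats in all, 3 of them given saline, and do not give how many rats made up an RNA extract, whether a pair shared its extracts, and whether both doses were set against the same saline RNA.

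MK-801 (dizocilpine) lodges in the open channel of the NMDA receptor, a glutamate-gated ion channel, and blocks the calcium entry through which synaptic activity reaches the nucleus. The amygdala is a group of nuclei in the temporal lobe that assigns emotional value to stimuli and holds excitatory principal neurons and many kinds of peptide-releasing GABA neurons. Early response genes are those that cells switch on within minutes of a stimulus without new protein synthesis. In rodents vasopressin is made by large neurosecretory neurons of the hypothalamus and also by neurons of the medial amygdala, and oxytocin chiefly by the hypothalamic neurons.

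On replicate 1 the treated RNA carried the red dye Cy5 and on replicate 2 the green dye Cy3, and the ratio of replicate 2 was turned so that a positive value means more transcript after MK-801. Ratios are log2 of treated over saline, so that 1 is a doubling. A feature was a gene, or a transcript without a current symbol, represented by its brightest probe, and was examined where at least 1 channel was well above background on both arrays. It was called where the mean of both arrays was at least 1.5-fold (0.58 on the log2 scale) from saline and both arrays had 1 sign. The pair counts as 1 sample, so a call carries no p-value. The array SE given with a mean is the error of hybridisation, from the spread of that gene within the 12 dye-swapped pairs of the study, and holds no spread between rats.

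The arrays differed in noise. Over 15648 features bright in all arrays, the SD of the log2 ratio after removal of the mean dye effect was 0.190 on replicate 1, rank 1 of 24 arrays, and 0.107 on replicate 2, rank 24. The median net signal was 65.7 and 272 in the saline channels of replicates 1 and 2 and 211 and 69.8 in the treated channels, the higher value in Cy5 each time. Before the dye effect was removed the ratios of both arrays correlated at -0.23 over the features examined, and at 0.26 after it was removed. This is a description over genes, which share the slide and are not replicates. Both single-array values therefore stand beside each mean.

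In the saline channels the label amygdala was borne out in part. Of 16 measured amygdala markers, 10 were higher in the amygdala than the mean of the other 5 regions, with a median difference of 0.25 on the log2 intensity scale, rank 3 of 6 regions, the highest value being 0.53 in the ventral striatum. Cyp26b1, which degrades retinoic acid and marks amygdala neurons, had its highest saline level in the amygdala, at 12.3 against 8.72 to 12.1 elsewhere. Esr1, the oestrogen receptor of the medial amygdala, was well above background on 0 of 4 amygdala saline channels. All 12 choroid plexus and ependyma markers and all 13 meningeal markers were higher in the amygdala than the mean of the other 5 regions, by a median of 1.09 and 1.57. Single regions could be higher still: Otx2 had 9.81 in amygdala against 11.6 in hypothalamus and 11.7 in midbrain. The label hypothalamus was borne out in part as well. The 13 hypothalamic neuron markers had their highest median difference in amygdala, at 0.07. The 7 thalamic markers had theirs in hypothalamus, at 2.85. Single hypothalamic markers were highest in hypothalamus, such as Pmch at 13.1. The 4 amygdala arrays were on 1 slide and no other region was on it, so region and slide cannot be told apart in any contrast of regions.

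Of 22868 features examined, 11420 with a gene symbol, 18 were called higher (0.0787%) and 18 lower (0.0787%). The called features with a symbol numbered 14, of which 6 were higher and 8 lower. Of the 36 called features, 34 lay more than 3 array SE from zero. The median array SE over features was 0.075, so the fold rule by itself nearly fixed that count, and it lends the calls no support. Past 1.5-fold on each array by itself were 11 higher and 9 lower features. At the looser fold of 1.2 there were 288 higher (1.26%) and 378 lower features (1.65%). Where each array had to pass 1.2-fold by itself these counts were 75 (0.328%) and 110 (0.481%). The split moved with the scaling: median centring in place of loess gave 15 higher and 29 lower at 1.5-fold, and the scanner software's processed signals 59 and 97. Replicate 1 alone gave 145 and 228, and replicate 2 alone 22 and 26. The gene values below rest on the mean of both arrays.

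**Figure D1:**
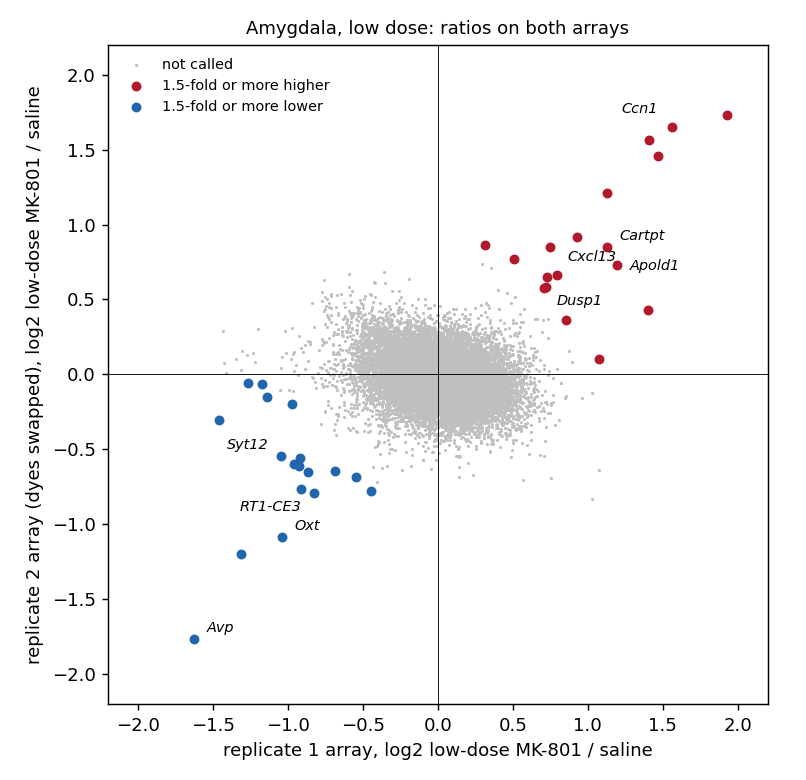
Each point is 1 of the 22868 features, with log2 low-dose MK-801 over saline on replicate 1 (x axis) and on the dye-swapped replicate 2 (y axis). The 18 features called higher are red and the 18 called lower blue. The grey cloud is wider along x than along y, and Avp and Ccn1 lie far from it with like values on both arrays.

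Transcripts of the posterior pituitary hormones vasopressin and oxytocin were lower after MK-801 than after saline. Avp, which encodes the vasopressin precursor, had ratios of -1.63 and -1.77, a mean of -1.70 (array SE 0.04), or 0.308 of the saline level. Oxt, which encodes the oxytocin precursor, had ratios of -1.04 and -1.08, a mean of -1.06 (array SE 0.06), or 0.479 of saline. The probe sequences are shown because the genes are sister copies and a signal could pass between them. Avp was measured by probes at chr3:118110655-118110714 and chr3:118110779-118111063 and Oxt by a probe at chr3:118100336-118100479 of build rn3. The Avp probes read the minus strand and the Oxt probe the plus strand. In the last pair of sequences capitals mark the bases that are identical when those are aligned without gaps.

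Avp, brightest probe: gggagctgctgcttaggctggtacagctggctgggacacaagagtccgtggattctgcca
Avp, second probe: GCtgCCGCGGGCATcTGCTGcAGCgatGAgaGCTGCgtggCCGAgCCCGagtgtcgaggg
Oxt: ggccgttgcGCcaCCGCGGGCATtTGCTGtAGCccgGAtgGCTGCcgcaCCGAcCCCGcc

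The second Avp probe and the Oxt probe shared 35 of 51 aligned bases with a longest common run of 10, and the brightest Avp probe and the Oxt probe 20 of 57 with a longest run of 6. The second Avp probe had ratios of -1.38 and -1.38, so both Avp probes were below saline on both arrays. In saline RNA the Oxt probe read 7.96 in amygdala, 9.51 in hypothalamus and 6.82 to 7.07 in the other 4 regions, on the log2 intensity scale, which is read here only between regions for the same probe. Avp read 11.1 in amygdala, 9.14 in hypothalamus and at most 8.87 in the other 4. Both were higher in amygdala than in those 4 regions, and only their order in amygdala and hypothalamus was unlike. Whether Avp transcript reached the Oxt probe was not tested.

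In single channels the Avp level was 11.1 and 10.9 in saline RNA on the low-dose arrays and 9.44 and 9.12 in treated RNA. On the high-dose arrays it was 11.4 and 10.95 in saline and 9.41 and 9.08 in treated RNA. Treated and saline values did not overlap at either dose. The Oxt level was 7.86 and 8.07 in saline RNA of the low-dose arrays against 6.82 and 6.99 in treated RNA. At the high dose Avp had a mean ratio of -1.91 and Oxt of -0.98, with both arrays of 1 sign for each gene.

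In the other 5 regions at the low dose the Avp ratio lay between -0.17 and -0.05 and the Oxt ratio between -0.20 and 0.04, in the hypothalamus -0.17 and -0.20. A test of this difference takes its spread from the 5 other regions and assumes that the amygdala varies like them. The regions were dissected from the same few rats, so they are not independent samples, although the test treats them as such. The amygdala differed from their mean by -1.58 (SE 0.07) for Avp, with a limma adjusted p of 3.75e-06 over 18565 features, and by -0.99 (SE 0.10, limma adjusted p = 0.0083) for Oxt. The Oxt value has a further limit: in cortex, hippocampus, ventral striatum and midbrain its saline level was no more than 7.07, close to its level of 6.82 and 6.99 in treated amygdala, so a ratio of the same size could hardly have shown there, and the hypothalamus is the one region that bears on the difference. Both arrays of the amygdala pair had the direction. Of the 18565 features 0 were higher and 3 lower in the amygdala at an adjusted p under 0.05 (0.0162%). The 3 were Avp, Oxt and a transcript tag. An unadjusted limma p under 0.05 was found for 2701 features. This is more than the share of 0.05 that the test allows where no region differs and its assumptions hold. Amygdala replicate 1 had the largest SD of all arrays after removal of the dye effect (0.190) and replicate 2 the smallest (0.107). If the amygdala varied more than the other regions, the adjusted p-values may be too small. The cause of the excess was not tested. With replicate 1 arrays alone 307 were higher and 351 lower, with replicate 2 arrays alone 0 and 2, and without hippocampus 0 and 5. Without cortex they were 1 and 3. The scan day of the amygdala arrays was shared only by midbrain, so with scan day as a block the difference was that from midbrain alone. It was -1.54 for Avp and -1.06 for Oxt, and Oxt did not pass the threshold there. With the scanner software's processed signals the Oxt difference was -1.94 and its limma adjusted p 0.102.

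Other markers of hypothalamic neurons gave values near zero. Of 15 such genes all had a probe and 11 passed the background filter, and the 9 besides Avp and Oxt had mean ratios between -0.12 and 0.15. Pmch, the melanin-concentrating hormone precursor, had ratios of -0.02 and 0.02, Hcrt, the orexin precursor, 0.16 and -0.05, and Pomc 0.07 and -0.11. In saline RNA Pmch read 8.31 in amygdala and 13.1 in hypothalamus, Hcrt 8.52 and 8.45, and Pomc 10.4 and 10.5. Pmch was thus low in amygdala, and Hcrt and Pomc read alike in both regions. Whether a fall of these 3 markers could have shown was not tested, so their ratios near zero are not read as a lack of change. Sim1, a transcription factor of the vasopressin and oxytocin neurons, was well above background on 0 of 4 saline amygdala channels, and Otp, another, on 1 of 4. In hypothalamus Sim1 was so on 0 of 4 as well, and Otp on 3 of 4, as in cortex. These probes therefore cannot tell whether such neurons were in the amygdala piece. In a dissected piece, fewer cells of a type and less RNA per cell cannot be told apart. The part of hypothalamic tissue at the edge of the dissection in the Avp and Oxt values was not tested. Avpr1a, a vasopressin receptor, had ratios of 0.05 and 0.03.

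**Figure D2:**
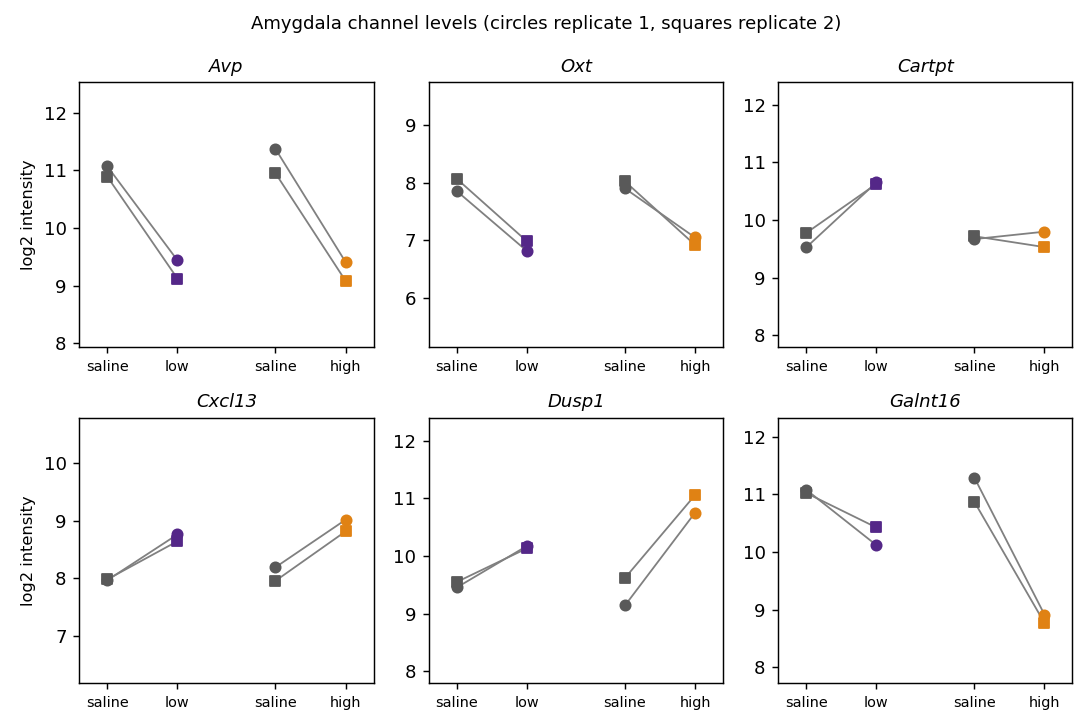
Log2 intensity of 6 genes in the saline and treated channels of the 4 amygdala arrays, with a line joining the channels of 1 array, circles for replicate 1 and squares for replicate 2, low-dose arrays on the left and high-dose arrays on the right of each panel. Each panel spans the same range, so slopes can be compared between genes and levels cannot. Avp goes from 11.1 and 10.9 to 9.44 and 9.12 at the low dose.

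A feature without a gene symbol, the expressed sequence tag AI008579, was the remaining one to differ from the other regions. Its ratios were -1.46 on replicate 1 and -0.30 on replicate 2, with a mean of -0.88 (array SE 0.14), and the difference from the other regions was -0.79 (SE 0.09, limma adjusted p = 0.0259). The arrays disagreed in size, and with replicate 2 arrays alone the difference was -0.54 with a limma adjusted p of 1.

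Early response genes were higher in a subset. Of 60 genes listed 58 had a probe and 55 passed the background filter. Of these 3 were called higher and 0 lower at 1.5-fold, and 12 were higher and 4 lower at 1.2-fold, with a median of 0.04 beside 0.00 over all features. Over all features 1.26% were higher and 1.65% lower at 1.2-fold, the shares to set beside this list and each list below. With each array past 1.2-fold, 7 were higher and 1 lower. Ccn1 (Cyr61), a secreted matricellular protein, had ratios of 1.56 and 1.65, a mean of 1.61 (array SE 0.15) or 3.05-fold. Its second probe gave 0.55 and 0.56, so the size depended on the probe while the direction did not. Apold1, expressed in the vascular endothelium, had ratios of 1.19 and 0.73 (mean 0.96, array SE 0.08). Dusp1, a phosphatase that switches off MAP kinases, had ratios of 0.72 and 0.58 (mean 0.65, array SE 0.10), the replicate 2 value standing just under the fold threshold.

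The 3 genes had larger mean ratios on the high-dose arrays, at 3.52 for Ccn1, 2.34 for Apold1 and 1.52 for Dusp1. The Dusp1 level was 9.45 and 9.55 in saline and 10.2 and 10.1 in treated RNA at the low dose, and 9.14 and 9.62 against 10.8 and 11.1 at the high dose, without overlap. At the low dose in other regions Ccn1 spanned a wide range, from -0.04 in midbrain through 0.65 in hypothalamus, 0.75 in hippocampus and 2.57 in ventral striatum to 3.66 in cortex. The amygdala value lay inside that range. Apold1 ranged from 0.30 to 2.53 and Dusp1 from 0.18 to 1.01 in those regions. Amygdala and the other regions differed by 0.09 for Ccn1 (SE 1.04), -0.03 for Apold1 (SE 0.62) and 0.08 for Dusp1 (SE 0.21), with limma adjusted p-values of 0.979, 0.988 and 0.895. Those SEs leave room for a difference in either direction.

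The other 9 members higher at 1.2-fold differed in how alike the arrays were. Btg2, an antiproliferative gene, had ratios of 0.66 and 0.37, Klf4, a zinc-finger factor, 0.87 and 0.15, and Klf2, its relative in endothelium, 0.42 and 0.27. Sik1, a kinase induced by cAMP, had 0.32 and 0.48 and Adamts1, a secreted protease, 0.48 and 0.31. Depp1 had 0.65 and 0.15, Jund, a component of the AP-1 factor, 0.47 and 0.10, Ier2 0.36 and 0.21, and Gadd45g, a growth arrest gene, 0.30 and 0.22. The 4 members lower at 1.2-fold were Fos, Egr2, Nr4a2 and Inhba. Fos had ratios of -0.50 and -0.03, Egr2 of -0.36 and -0.39, Nr4a2 of -0.47 and -0.11 and Inhba of -0.44 and -0.24.

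Other members often used as marks of neuronal activity, chosen for naming after their values were seen, lay between the thresholds. Egr1 had ratios of -0.16 and -0.24, Arc, which regulates synaptic receptors, -0.11 and -0.06, and Bdnf, a growth factor for neurons, -0.15 and -0.31. Fosb had a mean of -0.04, Junb of 0.02, and Jun and Nr4a1 of 0.07 each. On the high-dose arrays Fos had a mean of 0.78 and Atf3, a stress-induced factor, of 1.79, beside 0.14 for Atf3 at the low dose. Of the 4 members lower at 1.2-fold, Egr2 was the one past 1.2-fold on each low-dose array.

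The promoters of the 3 called early response genes, 250 bases before to 50 bases after the start site in RefSeq build GRCr8, are printed to show letter matches to control elements. Capitals mark matches on either strand to the cAMP response element (TGACGTCA), its core (TGACG, which the full element contains), and the TATA box (TATAAA). The CArG box was searched by name and had no match in these windows.

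Ccn1, chr2:237225640-237225939, minus strand: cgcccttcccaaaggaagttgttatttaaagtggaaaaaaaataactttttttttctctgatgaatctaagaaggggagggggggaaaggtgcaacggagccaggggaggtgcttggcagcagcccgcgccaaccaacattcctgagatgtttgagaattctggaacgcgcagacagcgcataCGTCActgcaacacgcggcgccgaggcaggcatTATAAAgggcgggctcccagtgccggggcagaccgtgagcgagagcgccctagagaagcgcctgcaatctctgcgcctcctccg
Apold1, chr4:169552349-169552648, plus strand: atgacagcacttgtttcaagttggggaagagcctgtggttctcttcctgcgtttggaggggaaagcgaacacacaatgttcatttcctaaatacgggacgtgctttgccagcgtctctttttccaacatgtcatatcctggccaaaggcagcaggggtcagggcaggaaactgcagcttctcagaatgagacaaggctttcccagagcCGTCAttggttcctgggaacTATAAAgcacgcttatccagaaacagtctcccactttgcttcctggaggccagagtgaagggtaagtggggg
Dusp1, chr10:17184603-17184902, plus strand: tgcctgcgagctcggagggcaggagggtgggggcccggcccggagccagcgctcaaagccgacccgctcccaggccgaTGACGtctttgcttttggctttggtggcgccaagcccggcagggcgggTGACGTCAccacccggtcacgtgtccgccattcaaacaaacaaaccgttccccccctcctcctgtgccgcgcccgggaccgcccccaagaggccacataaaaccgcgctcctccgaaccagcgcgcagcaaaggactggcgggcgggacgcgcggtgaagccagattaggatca

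Counted from the start site, Ccn1 had a core match at -67 and a TATA box at -34, and Apold1 a core match at -42 and a TATA box at -22. Dusp1 had a full element at -124, a further core match at -172, and no TATA box match. Among 33469 promoters of this length 1.83% held the full element, 21.2% a core match, 1.64% a CArG box and 14.2% a TATA box. A match is a run of letters and no measure of binding.

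Genes induced by glucocorticoid hormone shared Dusp1, Errfi1 and Per1 with that list. Of 21 listed 19 had a probe and 18 were measured, 4 were higher and 0 lower at 1.2-fold, 3 of them on each array, and the median was 0.06. Besides Dusp1 they were Sgk1, a kinase of ion transport, at 0.50 and 0.34, Tsc22d3 (Gilz), an anti-inflammatory factor, at 0.34 and 0.46, and Map3k6 at 0.43 and 0.17. Both Tsc22d3 probes had a mean of 0.40. Fkbp5, which restrains the glucocorticoid receptor, had 0.33 and 0.10 and stayed under the threshold. In the other regions Sgk1 lay between 0.30 and 0.60, so the amygdala value of 0.42 fell within them.

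Among amygdala neuropeptides and their receptors, 27 of 36 listed genes were measured. At 1.2-fold 3 were higher and 1 lower, 1 of them on each array, and the median was 0.06. Cartpt, the precursor of a satiety and stress peptide, was the member called at 1.5-fold. Its saline levels were 9.53 and 9.77 and its treated levels 10.7 and 10.6, without overlap, giving ratios of 1.13 and 0.85 and a mean of 0.99 (array SE 0.04) or 1.98-fold. On the high-dose arrays its ratios were 0.13 and -0.19, with treated and saline levels overlapping.

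In the other regions at the low dose Cartpt ranged from -0.28 in ventral striatum to 0.49 in hippocampus and midbrain. The amygdala exceeded their mean by 0.72 (SE 0.23), with a limma adjusted p of 0.221, which did not pass the threshold. Pdyn, the dynorphin precursor, had ratios of 0.57 and 0.15, and Tac3, the neurokinin B precursor, 0.55 and 0.15. Sst, the somatostatin precursor, had -0.49 and -0.11. These 3 sizes rested mainly on replicate 1. Crh, the stress peptide corticotropin-releasing hormone, had 0.58 and -0.26, and Nts, neurotensin, 0.53 and -0.02, so the arrays gave unlike signs. Npy had 0.16 and -0.11 and Penk 0.06 and 0.20.

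The gene list built around the drug's own target gave ratios near zero. It held the NMDA receptor subunit genes and also Dlg3, Dlg4, Srr and Daao, which encode no subunit. Of 11 genes listed 10 had a probe and 9 were measured, 0 of which were past 1.2-fold in either direction. The means ran from -0.16 to 0.06 with a median of -0.01, over subunit and other genes together. Grin1, the subunit common to all NMDA receptors, had ratios of -0.10 and -0.19 with its brightest probe and a mean of 0.11 with the other probe. Grin2a had -0.08 and -0.24 and Grin2b -0.18 and -0.03. None of 15 measured AMPA, kainate and metabotropic receptor genes was past 1.2-fold with like signs, the lowest being the AMPA subunit Gria1 at -0.59 and 0.06. Of 22 GABA signalling genes 0 were higher and 1 lower, which was Sst, and Gad2, a GABA-making enzyme, had 0.21 and 0.21. Of 15 serotonin and dopamine receptors 0 were past 1.2-fold, with means from -0.16 to 0.17.

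Cxcl13, a chemokine that attracts B cells, was called higher with ratios of 0.79 and 0.66 (mean 0.73, array SE 0.07). Its saline levels were 7.97 and 7.98 and its treated levels 8.76 and 8.65, and at the high dose the ratios were 0.82 and 0.86. In the other regions its ratios lay between -0.15 and -0.01, but its saline levels there were only 6.35 to 7.16, so no difference between regions is read from these ratios. It was not part of the test against them, since it was well above background on 0 to 2 of 4 saline channels in 4 regions and on 4 of 4 in cortex. Microglia markers, from the cells of brain immunity, gave 1 of 16 higher and 0 lower at 1.2-fold, and interferon-stimulated genes 0 of 22 in either direction.

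Class I histocompatibility genes, whose products present peptides to T cells, held 2 of the 18 features called lower. Of 28 listed 21 had a probe and 18 were measured, 0 were higher and 5 lower at 1.2-fold, all 5 on each array, and the median was -0.13. Over all features 1.65% were lower at 1.2-fold and 0.481% on each array. RT1-CE3 had ratios of -0.83 and -0.79 (mean -0.81, array SE 0.07) and RT1-CE16 of -0.93 and -0.61 (mean -0.77, array SE 0.06). RT1-A2 had -0.68 and -0.41, RT1-S3 -0.60 and -0.36 and RT1-CE2 -0.67 and -0.28. The invariant partner B2m had 0.14 and -0.04 and the peptide transporter subunit Tap1 -0.27 and 0.05.

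Class I genes are close copies of each other, and some of these probes were alike. Capitals mark the run of 29 bases common to the RT1-CE2 and RT1-A2 probes, and RT1-CE3 shared 47 of 56 aligned bases with RT1-CE2.

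RT1-CE3: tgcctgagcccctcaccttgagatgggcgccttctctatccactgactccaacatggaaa
RT1-CE2: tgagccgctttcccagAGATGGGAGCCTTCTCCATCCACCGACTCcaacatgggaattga
RT1-A2: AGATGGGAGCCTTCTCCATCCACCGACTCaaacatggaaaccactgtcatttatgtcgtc

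The called genes RT1-CE3 and RT1-CE16 shared 19 of 55 aligned bases with a longest run of 16, and RT1-CE16 and RT1-CE2 20 of 53 with a longest run of 15. How far a transcript of one copy was read by the probe of another was not tested. The second RT1-A2 probe, without the run of 29, had ratios of -0.07 and 0.14, and the second RT1-S3 probe -0.03 and -0.45. In the other regions at the low dose RT1-CE3 lay between -0.87 and -0.60 and RT1-CE16 between -0.75 and -0.54, close to the amygdala values. The difference between amygdala and those regions was -0.09 (SE 0.10, limma adjusted p = 0.721) for RT1-CE3 and -0.15 (SE 0.09, limma adjusted p = 0.46) for RT1-CE16. On the high-dose arrays the means were -0.41 and -0.47.

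The other genes called lower have roles in sugar chains, vesicles and signalling. St6gal2, which adds sialic acid to glycoproteins, had ratios of -0.92 and -0.76 (mean -0.84, array SE 0.10) against -0.54 to -0.14 in other regions. Syt12, a synaptotagmin of synaptic vesicles, had -1.05 and -0.54 (mean -0.80, array SE 0.08) against -0.43 to -0.26. Their differences from the other regions, -0.51 (SE 0.12) and -0.42 (SE 0.07), had limma adjusted p-values of 0.154 and 0.103. Galnt16, which starts O-linked sugar chains, had -0.96 and -0.60 (mean -0.78, array SE 0.10), beside -0.91 to -0.51 in the other regions, while its high-dose ratios were -2.38 and -2.10. Ptprj, a receptor tyrosine phosphatase, had -0.87 and -0.65, with a second probe at a mean of -0.39, beside -0.79 to -0.62 in other regions. The transcript TC566645, which has no symbol, had -1.31 and -1.20 (mean -1.25, array SE 0.07), against -1.10 to -0.70 elsewhere.

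Several called features had like ratios in every region at the low dose, among them some without a symbol. DV722942 had a mean of 1.17, against 0.72 to 1.19 in the other regions, and 0.03 on the high-dose amygdala arrays. For BF556006 these values were 0.80, 0.59 to 1.03 and -0.29, and for TC537427 1.49, 1.12 to 1.82 and 0.80. A further pair is given in full. Pyroxd2, a mitochondrial oxidoreductase, had 0.71 and 0.58 (mean 0.64, array SE 0.06), against 0.45 to 0.62 in the other regions, and 0.08 and -0.15 on the high-dose amygdala arrays. The predicted gene LOC685106 had the highest mean of any feature examined, with ratios of 1.93 and 1.73 (mean 1.83, array SE 0.08). It had 1.68 to 2.35 in the other regions but 0.02 and -0.14 on the high-dose amygdala arrays. Neither of them differed between amygdala and the other regions past the threshold, at 0.08 (SE 0.07, limma adjusted p = 0.632) and -0.24 (SE 0.18, limma adjusted p = 0.571).

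**Figure D3:**
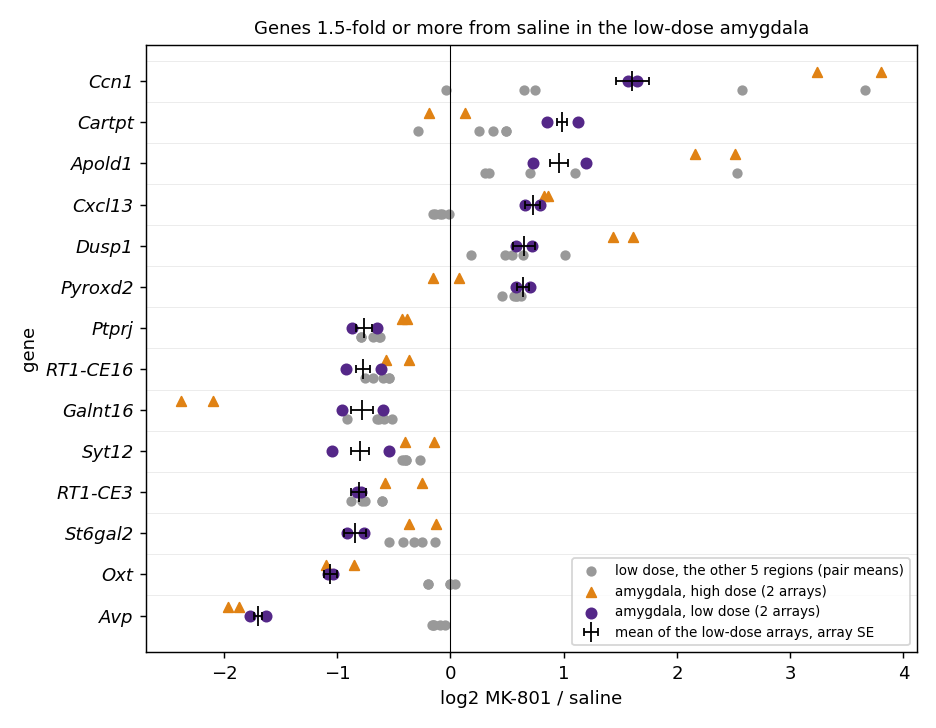
Log2 MK-801 over saline (x axis) of the 14 genes with a symbol called in the low-dose amygdala. Purple points are the 2 low-dose amygdala arrays, with a black tick at their mean and bars of 1 array SE, orange triangles the 2 high-dose amygdala arrays and grey points the pair means of the other 5 regions at the low dose. Avp, Oxt and Cxcl13 have all grey points near zero. For Cxcl13 in 4 regions and Oxt in 4 regions these are ratios of low levels. For Avp they start from saline levels of at most 9.14, beside 11.1 in amygdala. For Ptprj, RT1-CE3, RT1-CE16, Galnt16 and Pyroxd2 the grey points lie beside the purple ones.

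Markers of other cell types were counted in the same way, and their part in the results above was not tested. Over all features 11611 of 22868 had a mean ratio above zero, and at 1.2-fold 1.26% were higher and 1.65% lower. All 12 measured choroid plexus and ependyma markers had mean ratios above zero, from 0.00 to 0.51. Their median was 0.20 at the low dose and 0.89 on the high-dose arrays. Those higher at 1.2-fold were 3, 1 of them on each array: Sostdc1 at 0.57 and 0.44, the water channel Aqp1 at 0.41 and 0.16 and Kl (klotho) at 0.29 and 0.25. Ttr, the thyroid hormone carrier made by choroid plexus, had 0.22 and 0.17. Of 17 striatal projection neuron markers 4 were higher and 1 lower, with a median of 0.11. Adora2a, the adenosine receptor of striatopallidal neurons, had 0.49 and 0.48 and was the member past 1.2-fold on each array, with a second probe at 0.29 and 0.29, and with -0.37 to 0.05 in other regions.

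Of 17 oligodendrocyte and myelin markers 3 were higher and 0 lower, 0 of them on each array, and the median was 0.11. Opalin, a myelin membrane protein, had 0.43 and 0.16 with its brightest probe and a mean of -0.64 with the other. The major myelin genes gave unlike signs, with Mbp at -0.43 and 0.48 and Mobp at -0.60 and 0.58. Of 7 measured blood cell markers 3 were lower: the globin genes Hbb at -1.05 and -0.10, Hba-a3 at -0.37 and -0.63 and Hbb-b1 at -0.01 and -0.57. Among 21 endothelial and mural markers 1 was higher and 2 lower. The higher one was Abcg2, an efflux pump of the blood-brain barrier, at 0.51 and 0.52, with 0.48 to 0.75 in the other regions. Astrocyte, thalamic, hippocampal and circadian clock lists had 0 members past 1.2-fold of 13, 7, 8 and 15 measured. Of 13 meningeal and of 10 cortical neuron markers 0 were higher and 1 each was lower, and of 15 heat shock genes the inducible Hspa1a was lower at -0.26 and -0.36, with its second probe at -0.11 and 0.22.

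**Figure D4:**
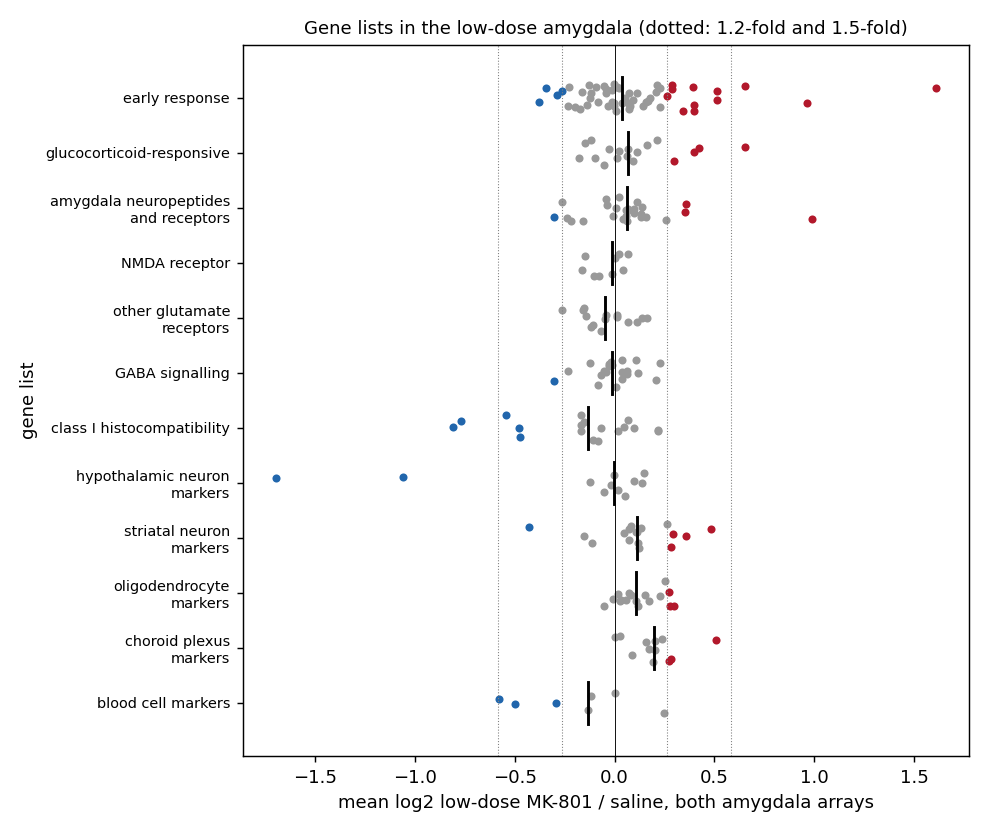
Mean log2 low-dose MK-801 over saline on both amygdala arrays (x axis) for the measured members of 12 gene lists, 1 point per gene, with a black bar at the median of each list. Red and blue points are past 1.2-fold with like signs on both arrays, and dotted lines stand at 1.2-fold and 1.5-fold. The members of the NMDA receptor list, which holds some genes that encode no subunit, cluster around -0.01. Avp and Oxt lie lowest among the hypothalamic markers. Among the other members of that list, Pmch had a saline level of 8.31 in amygdala against 13.1 in hypothalamus. Whether a fall of those members could have shown was not tested.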

How the data were processed

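Both amygdala low-dose arrays were read from scanner output holding spot intensity on a linear scale with local background, per the file headers, made with Agilent Feature Extraction version 9.5.3.1 per the submitters' processing notes. The authors' deposited value table held log10 of treated over saline, matching that of the scanner files' processed signals to within 0.01 for 100% of entries. Its column medians were -0.01 and 0.00 here, with no further centring seen. From mean intensities, log2 ratios were computed from the deposited files by normexp background correction (offset 50) and loess within array in limma 3.58.1 (R 4.3.3), with control spots at weight 0 and outlier spots left out. Channel levels were quantile-normalised over arrays on the mean intensity of each spot. Probes carried rn3 coordinates, and exon annotation of that build was not used here. Of 43379 spots, 21109 kept the file's own name, the others being named through RefSeq (GRCr8).

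Genes named were those called with a symbol, list members past 1.5-fold and up to 4 further ones of a list with like signs, and those differing from the other regions. Further genes were named after their values were seen. Gene lists and the comparison were chosen with earlier results of these data known. The test against the other regions used limma on 6 pair means (4 residual degrees of freedom) with Benjamini-Hochberg adjustment. It was tested on simulated data, where 66% of changes of 0.5, 96% of 1 and 100% of 1.5 and 2 (log2) were found, with 6 false calls among 18565 features. The simulation held 50 changed features of each size, drew the regions independently and gave the amygdala the spread of the other 5. Real regions came from the same rats, and amygdala replicate 1 was the noisiest array, so these rates need not hold for the data. Alternatives were other background corrections, centring, filters, folds, single arrays, regions left out and scan day. The number of arrays limits the precision, and p-values measure the spread between regions of the same rats, not between rats.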

Additional observations from a re-analysis of the deposited data

Results flagged for a closer look

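The difference between the amygdala and the mean of the other 5 regions at the low dose drew attention for 3 features, each by limma's test of the difference itself over 18565 features, between regions taken from the same few rats. It was -1.58 for Avp (limma adjusted p = 3.75e-06), with limma adjusted p-values from 3.98e-07 to 0.00197 over the alternatives. It was -0.99 for Oxt (limma adjusted p = 0.0083), from 0.00142 to 0.117 over the alternatives, with saline levels of at most 7.07 in 4 of the other 5 regions. It was -0.79 for the tag AI008579 (limma adjusted p = 0.0259), from 0.00331 to 1 over the alternatives. The ratio was below zero on both amygdala arrays for each of these features. The limma p-values assume that the amygdala varies like the other regions, and may be too small if it varies more. Avp saline levels were at most 9.14 in the other 5 regions, beside 9.44 and 9.12 in treated amygdala.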

How the results depend on the processing

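Counts of features past 1.5-fold, 18 higher and 18 lower, were 59 and 97 with the scanner software's processed signals, and 60 and 89 with the authors' deposited table, which held 18 and 17 of the same features in either case. Median centring gave 15 higher and 29 lower. At 1.2-fold the counts were 288 and 378 and at 2-fold 5 and 3. Leaving out 1 array gave 22 to 145 higher and 26 to 228 lower, the larger counts without replicate 2. With each array past 1.5-fold, a rule chosen after seeing the data, they were 11 and 9. Filters, probe averaging, the smaller offset and dye correction kept them within 1.5 times.

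Against the other 5 regions, 0 higher and 3 lower, the lower count was 1 with processed signals and 1 with the deposited table. Without a filter on dim probes there were 3 higher and 5 lower, 6 and 5 with a block for scan day, and with replicate 1 arrays alone 307 and 351. Leaving out 1 region gave 0 to 1 higher, the 1 without cortex, and 2 to 5 lower, the 5 without hippocampus. Avp passed the threshold in all of these. Oxt lost its call with processed signals (limma adjusted p = 0.102), the deposited table (0.117) and scan day as a block (0.0733). AI008579 lost it with those 3 (0.148, 0.154 and 0.0647), with offset 16 (0.0795), median centring (0.0713), without ventral striatum (0.0908) or midbrain (0.0512), and with replicate 2 arrays alone. The cause was not tested. With scan day as a block the amygdala was in effect set against midbrain alone. By the mean over all probes, Ccn1 was 1.08 and Opalin -0.17. Of 1030 values of named genes under the alternatives 77 moved by more than the SD of both arrays, and of 240 list medians 36 moved. No paired analysis was possible because the labels carry no replicate numbers and a pair of arrays was averaged to 1 value. Weak signal limits dim genes such as Oxt, whose ratio was -2.12 with processed signals.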
